A study of Mus musculus with 15 samples.

Results

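The genes described here are 9 markers of the supporting cells of the heart, chosen by symbol as rows of the deposited expression table. Pdgfra, Tcf21, Dpt, Dcn, Lum and Mfap4 are used as fibroblast markers, and Pdgfrb, Cspg4 and Rgs5 as markers of mural cells. All 9 were found among the 16042 genes of the table. All 9 were among the 10868 genes that passed the filter on low values, a mean of at least 1 RPKM (read density over a gene model, corrected for its length and for the mapped reads of the column) over all mice.

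The study sequenced polyadenylated RNA from the ventricles of 15 mice aged 20 to 22 weeks. In the strain MHCrtTA/TRECUGBP1, a Flag-tagged LYLQ isoform of human Celf1, an RNA-binding protein, is switched on by doxycycline through an activator (rtTA) under control of a promoter from the alpha myosin heavy chain gene. Induced mice of this strain were taken after 12 hours, 24 hours, 72 hours or 7 days on food with 2 g doxycycline per kg, with 3 mice at each time. The 3 control mice, of the strain MHCrtTA, carried the activator without the Celf1 cassette and had the doxycycline food for 72 hours, so activator and doxycycline were common to all 5 groups. Mice of all groups went without food for 2 to 3 hours ahead of the doxycycline diet. Only the 72 hour group matched the controls in time on doxycycline. The promoter is active in heart muscle cells, so the fibroblasts and mural cells described here are not the cells in which the transgene was designed to be expressed.

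Fibroblasts build and turn over the collagen network between heart muscle cells, and mural cells (pericytes and the smooth muscle cells of vessels) wrap the capillaries and arteries. The receptors for platelet-derived growth factor divide roughly between these cells, with Pdgfra on fibroblasts and Pdgfrb on mural cells and also on some fibroblasts. In an injured heart, fibroblasts can divide, take up matrix synthesis and turn on genes of an activated state. A level in RNA from a whole ventricle holds both the number of cells of a type and the RNA in each of them, so fewer cells of a type and less RNA per cell cannot be told apart.

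The row of the induced gene, listed under its older symbol Cugbp1, stood at 33.8, 36.1 and 33.3 RPKM in the 3 controls. It was 351, 220 and 345 RPKM after 12 hours, 416, 423 and 295 after 24 hours, then 179, 181 and 159 after 72 hours. At 7 days it was 29.5, 30.9 and 37.9, which overlapped the controls, so this row did not tell mice labelled 7 days from controls. Depth was estimated from the values at 16.4 to 52.1 M reads per column, median 25.05. The table has 20 columns, since 5 mice have a repeat column, and the column names hold 9 different codes, which no label explains. The 3 control columns share their code with the 72 hour mouse A3278 and with no other mouse, and the codes of the 24 hour mice occur in no other group. Code and group cannot be told apart for the 24 hour group, and the 7 day group shares no code with the controls. A fit with the column code as a term therefore ties the induced mice to the controls only through A3278. Each value against control from that fit, at 7 days and at earlier times, rests on this 1 mouse.

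Promoter sequences were matched in RefSeq (GRCm38.p6) for 5 of the 9 genes: Pdgfra, Tcf21, Dpt, Cspg4 and Rgs5. Dcn, Lum, Mfap4 and Pdgfrb had no entry in the table used. Each sequence runs from 250 bases before to 50 bases after the start of the gene, 5′ to 3′ on the strand of the gene. Pdgfra and Cspg4 are shown because their RNA rose at 7 days, and Dpt and Rgs5 because theirs did not pass the test, so that 1 pair of each cell type can be read side by side. Capitals mark matches to any of 6 motifs searched on both strands.
Pdgfra, chr5:75152001-75152300, plus strand: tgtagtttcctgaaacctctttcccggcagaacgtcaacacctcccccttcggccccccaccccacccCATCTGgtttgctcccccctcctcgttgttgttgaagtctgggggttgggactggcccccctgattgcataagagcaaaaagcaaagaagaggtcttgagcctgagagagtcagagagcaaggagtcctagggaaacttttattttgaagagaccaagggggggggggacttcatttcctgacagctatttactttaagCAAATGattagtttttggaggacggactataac
Dpt, chr1:164796413-164796712, plus strand: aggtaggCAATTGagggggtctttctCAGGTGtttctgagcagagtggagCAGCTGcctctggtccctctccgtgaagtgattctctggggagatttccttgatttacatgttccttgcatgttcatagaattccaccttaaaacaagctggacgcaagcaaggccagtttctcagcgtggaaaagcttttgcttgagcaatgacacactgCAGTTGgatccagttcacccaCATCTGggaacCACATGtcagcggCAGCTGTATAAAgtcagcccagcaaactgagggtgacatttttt
Cspg4, chr9:56864854-56865153, plus strand: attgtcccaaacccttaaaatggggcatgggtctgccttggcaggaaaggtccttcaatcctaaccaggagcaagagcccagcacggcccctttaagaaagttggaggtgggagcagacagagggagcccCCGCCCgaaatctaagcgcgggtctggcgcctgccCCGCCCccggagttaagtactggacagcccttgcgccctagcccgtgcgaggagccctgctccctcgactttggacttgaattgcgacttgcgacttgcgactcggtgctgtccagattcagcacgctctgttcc
Rgs5, chr1:169655251-169655550, plus strand: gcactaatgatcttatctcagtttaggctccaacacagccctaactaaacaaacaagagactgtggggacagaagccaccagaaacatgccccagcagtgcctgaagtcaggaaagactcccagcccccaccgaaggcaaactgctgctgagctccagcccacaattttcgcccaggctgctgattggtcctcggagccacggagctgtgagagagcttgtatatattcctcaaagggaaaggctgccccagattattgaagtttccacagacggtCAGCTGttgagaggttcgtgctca
The motifs were the E-box (CANNTG), which basic helix-loop-helix factors such as Tcf21 recognise, the GC box (GGGCGG), the TATA box (TATAAA), the AP-1 motif (TGANTCA), the TEAD motif (GGAATG) and the CArG box of SRF. Pdgfra held 2 E-boxes and Dpt 7 E-boxes and 1 TATA match that follows an E-box directly. This TATA match begins at base 13 after the start of the gene, so it lies downstream of that start. Cspg4 held 2 GC boxes, which appear here as their reverse complement CCGCCC, and Rgs5 1 E-box. Tcf21 held no match. Of 32851 RefSeq promoters of the same length, 72.31% held an E-box, 35.66% a GC box, 13.62% a TATA box, 7.808% the AP-1 motif, 14.66% the TEAD motif and 1.629% the CArG box. None of the 6 motifs was present in both genes that rose and absent from both that did not pass, and a match is only a description of the letters.

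Celf1 is known to bind GU-rich elements in 3′ untranslated regions, so that region of the longest annotated transcript (mm9, GENCODE vM1) was searched for TGTTTGT on the strand of the gene. Each match is shown once per gene, with capitals marking the motif.
Pdgfra: tgcacagcctcTGTTTGTtgcttcttttt
Lum: atatacatggaTGTTTGTtatcctaatcc
Cspg4: ggcagatgggcTGTTTGTtgagatgggac
Rgs5: agaatgtgtagTGTTTGTttagtgttcct
Pdgfra, Lum and Cspg4 each held 1 match and Rgs5 held 2. The match shown for Rgs5 was chosen for the most TGT within its window, with the earlier one taken in a tie. Tcf21, Dpt, Dcn, Mfap4 and Pdgfrb held none. A match was present in 27.1% of 9590 tested genes with an annotated 3′ region. Matches occurred in genes that rose at 7 days and in Rgs5, which did not pass the test, and genes without a match were also found on both sides.

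In control hearts Dcn was the most abundant of the 9 genes at 339 ± 18.8 RPKM (SD, n = 3), followed by Rgs5 at 118 ± 18.6. Dpt (49.4 ± 8.31) and Lum (47.3 ± 14.1) came next and overlapped each other. Pdgfrb followed at 15.5 ± 0.766, then Tcf21 (8.81 ± 0.723), Mfap4 (8.39 ± 2.31) and Pdgfra (6.75 ± 0.424), where neighbours in the order overlapped. Cspg4 was lowest at 4.09 ± 0.406 RPKM. RPKM are scaled by gene length, so these levels can be set side by side, and each fibroblast and mural marker was present in each of the 15 mice. At 7 days the order had changed in the middle: Mfap4 (39.4 ± 14.8) and Pdgfra (26.0 ± 3.59) had moved up beside Pdgfrb (29.5 ± 6.45), and Mfap4 overlapped Dpt (48.6 ± 10.4).

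**Figure D1:**
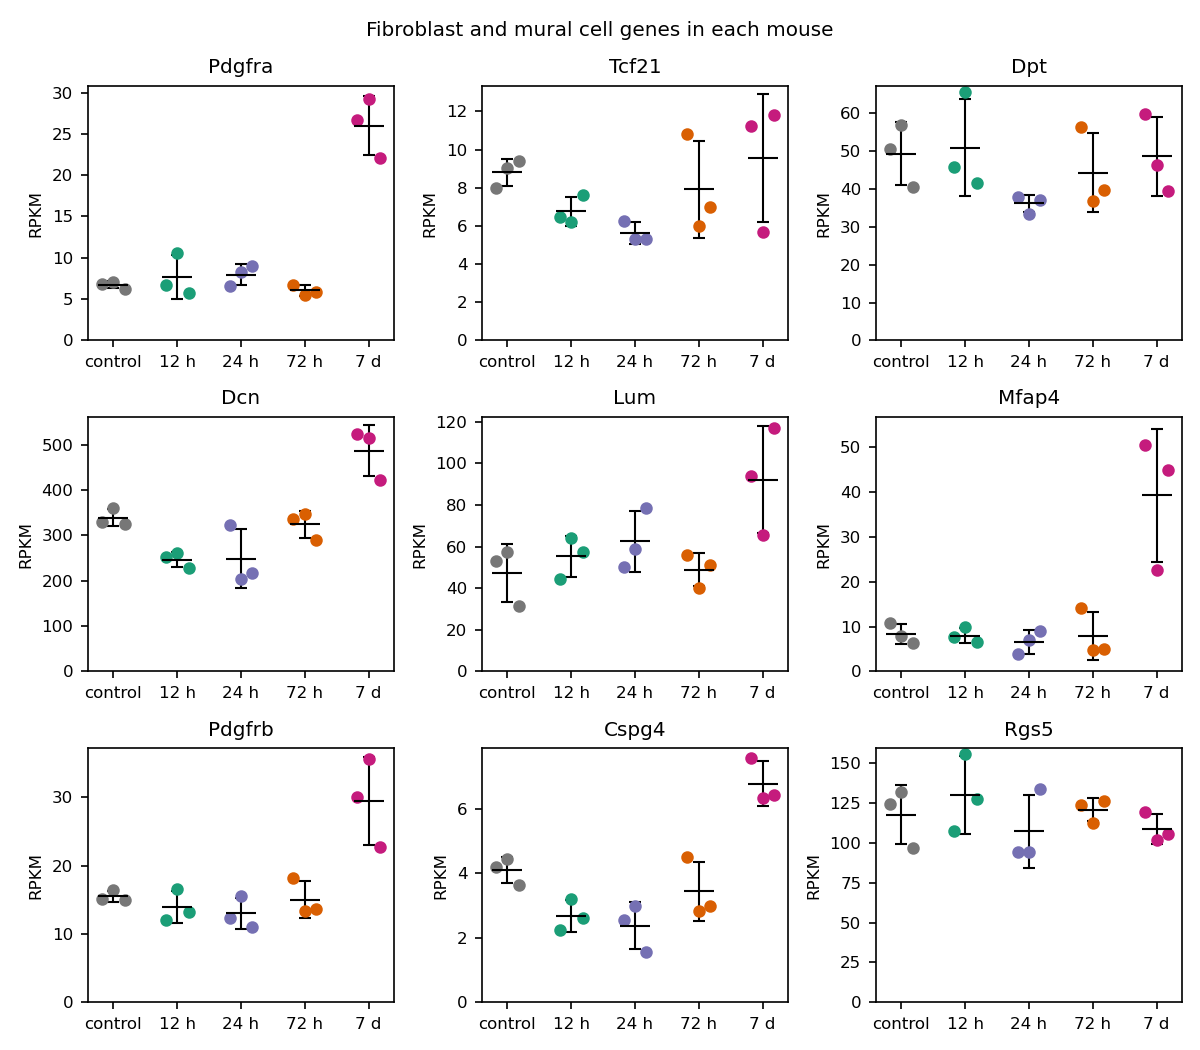
RPKM of the 9 genes in each of the 15 mice, 1 panel per gene with a linear axis from 0. Points are mice, the long bar is the group mean and the whiskers are 1 SD (n = 3). Pdgfra lies between 22.1 and 29.2 at 7 days and at or below 10.6 in the other 12 mice, while Rgs5 overlaps between all groups.

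At 7 days, 6 of the 9 genes rose against the controls, 4 fibroblast genes (Pdgfra, Mfap4, Lum, Dcn) and 2 mural genes (Pdgfrb, Cspg4), and none fell. Among all genes tested, 26.7% rose and 28.2% fell in this comparison, so a rise was not rare. The median of the 9 genes was 0.61 on the log2(RPKM + 1) scale, against -0.03 over all genes tested. In the 6 genes the 7 day mice did not overlap the controls and lay above them, as did 32.4% of all genes. Tcf21, Dpt and Rgs5 did not pass the test. Tests were made with limma on all tested genes and p-values were adjusted by Benjamini-Hochberg over all of them, with a threshold of 0.05.

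Pdgfra encodes the growth factor receptor by which cardiac fibroblasts are commonly recognised (chr5:75548316-75594229, mm9, plus strand). Its level was 6.88, 7.10 and 6.28 RPKM in controls and 6.65, 10.6 and 5.71 in the 12 hour mice. At 24 hours its level was 6.57, 8.32 and 8.995, at 72 hours 6.73, 5.55 and 5.86 and at 7 days 26.7, 29.2 and 22.1. The lowest 7 day mouse was above the highest of the other 12 mice, A3252 at 12 hours, and the first 4 groups overlapped. The rise over control was 1.79 ± 0.20 (log2, SE; limma adjusted p = 1.25e-06, higher in 3 of 3 mice), a ratio of mean RPKM of 3.85. Each alternative processing that was run kept this call, and the same holds for Pdgfrb and Mfap4.

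Pdgfrb, the related receptor that pericytes need to be recruited to vessels, lies on chromosome 18. It stood at 15.2, 16.4 and 15.0 RPKM in controls and 12.0, 16.5 and 13.2 in those of 12 hours. Levels were then 12.4, 15.6 and 11.1 in the 24 hour mice, 18.1, 13.3 and 13.6 in the 72 hour mice and 30.1, 35.7 and 22.8 in the 7 day mice. Again the 7 day mice stood above all others and the earlier groups overlapped. The rise over control was 0.86 ± 0.20 (limma adjusted p = 0.00129), a ratio of means of 1.90. With the column code as a term in the fit it was 1.41 (adjusted p = 0.00108).

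The balance between the receptors was also compared. Within each mouse, Pdgfra stood at 0.419 to 0.453 of the RPKM of Pdgfrb in controls, 0.371 to 0.431 at 72 hours and 0.818 to 0.969 at 7 days. The 7 day mice did not overlap either group, and the mean ratio was 2.05 times that of controls. An exact two-sided permutation test gave p = 0.1, the smallest that 3 mice against 3 can give. A ratio within a mouse does not depend on how that mouse was scaled. At 12 hours the ratio was 0.432 to 0.644 and at 24 hours 0.532 to 0.812, so the 24 hour mice also lay above the controls and their highest mouse came close to the lowest at 7 days.

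**Figure D2:**
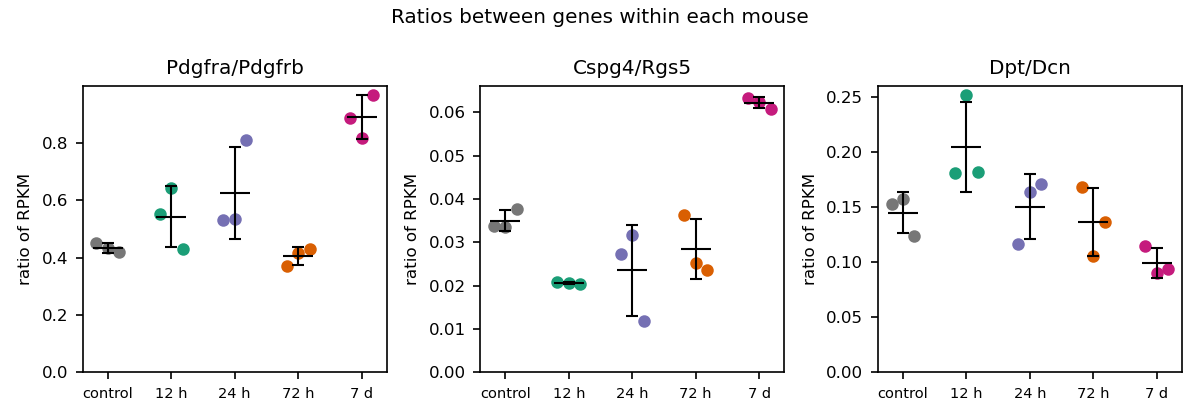
Ratio of RPKM between pairs of genes within each of the 15 mice, with a linear axis from 0. Points are mice, the long bar is the mean and the whiskers are 1 SD (n = 3). Pdgfra/Pdgfrb and Cspg4/Rgs5 are above the control and 72 hour mice in all 7 day mice, and Dpt/Dcn is below the controls in all of them.

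Tcf21 encodes a basic helix-loop-helix transcription factor that is needed to form cardiac fibroblasts and is read as a mark of resting ones (chr10:22537085-22539934, minus strand). It stood at 8, 9.04 and 9.39 RPKM in controls and 6.45, 6.20 and 7.63 in the 12 hour mice. At 24 hours its level was 6.27, 5.31 and 5.31, at 72 hours 10.8, 6.01 and 6.98 and at 7 days 11.2, 5.68 and 11.8. Mice at 7 days fell on both sides of the controls, with A3283 below all of them and the other 2 above. The difference was 0.05 ± 0.24 (limma adjusted p = 0.871), with a 95% interval from -0.45 to 0.55. Pdgfra relative to Tcf21 was 0.669 to 0.860 in controls and 1.87 to 5.14 at 7 days, without overlap (exact permutation p = 0.1, the smallest possible). Tcf21 rests on the fewest reads of the 9 genes, at an estimated 124 in its shallowest column.

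Dcn and Lum encode decorin and lumican, small leucine-rich proteoglycans that bind collagen fibrils, and lie near each other on chromosome 10 (chr10:96942245-96980777 and chr10:97028135-97035337, plus strand). Dcn stood at 330, 360 and 326 RPKM in controls and 252, 260 and 228 in those of 12 hours. Levels were then 323, 205 and 217 in the 24 hour mice, 335, 348 and 291 in the 72 hour mice and 523, 515 and 422 in the 7 day mice. The 7 day mice were above all others, and the rise over control was 0.52 ± 0.18 (limma adjusted p = 0.0243). This call was not stable. It was lost without the control A3250 or A3280 or the 7 day mouse A3345 or A3283 (limma adjusted p from 0.0662 to 0.0782), and with a correction for GC content the difference turned to -0.10 (adjusted p = 0.727).

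Lum stood at 53.1, 57.5 and 31.3 RPKM in controls and 44.4, 64.0 and 57.6 in the 12 hour mice. At 24 hours its level was 50.1, 58.7 and 78.6, at 72 hours 55.9, 40.1 and 51.1 and at 7 days 94.0, 65.7 and 117. All 7 day mice lay above the controls and the 72 hour mice, but A3283 at 7 days was below A3262 at 24 hours. The rise over control was 0.96 ± 0.26 (limma adjusted p = 0.00462), a ratio of means of 1.95. It did not pass with the GC correction (0.31, adjusted p = 0.362) or with the column code in the fit (1.13, adjusted p = 0.0887). Rgs5, Lum and Dcn have the lowest GC content of the 9 transcripts, at 41.1%, 42.0% and 42.4%, against 59.2% in Cspg4.

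Dpt encodes dermatopontin, a small matrix protein that binds decorin (chr1:166726863-166754397, plus strand). It stood at 50.7, 56.9 and 40.5 RPKM in controls and 45.7, 65.6 and 41.5 in those of 12 hours. Levels were then 37.8, 33.5 and 37.2 in the 24 hour mice, 56.4, 36.9 and 39.7 in the 72 hour mice and 59.9, 46.4 and 39.6 in the 7 day mice. Controls and 7 day mice overlapped, and the difference was -0.03 ± 0.22 (limma adjusted p = 0.924, 95% interval from -0.48 to 0.43). Relative to Dcn in the same mouse, Dpt was 0.124 to 0.158 in controls and 0.0900 to 0.115 at 7 days, below the controls in 3 of 3 mice (exact permutation p = 0.1, the smallest possible). Against the 72 hour mice the same ratio overlapped (exact permutation p = 0.2).

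Mfap4 encodes a glycoprotein attached to elastic fibres and collagen (chr11:61298933-61302402, plus strand). It stood at 10.9, 7.87 and 6.38 RPKM in controls and 7.64, 9.92 and 6.47 in the 12 hour mice. At 24 hours its level was 3.83, 6.93 and 9.07, at 72 hours 14.2, 4.70 and 5.08 and at 7 days 50.5, 22.5 and 45.1. Mfap4 was above all others in the 7 day mice, although A3283 reached less than the other 2. Its rise over control of 2.05 ± 0.37 (limma adjusted p = 0.000166), a ratio of means of 4.70, had the highest estimate of the 9 genes. With the column code in the fit it was 3.33 (adjusted p = 0.000148), a value tied to controls through A3278, which stood at 14.2 RPKM against 4.70 and 5.08 in the other 72 hour mice. Exons of Mfap4 overlap Mapk7 on the opposite strand, and without the strand of the reads the genes cannot be told apart there. Mapk7 itself stood at 3.26 to 3.73 RPKM in controls and 4.79 to 4.94 at 7 days.

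Cspg4, the NG2 proteoglycan of pericyte membranes (chr9:56712911-56747677, plus strand), stood at 4.20, 4.43 and 3.64 RPKM in controls and 2.23, 3.20 and 2.60 in those of 12 hours. Levels were then 2.56, 2.99 and 1.58 in the 24 hour mice, 4.50, 2.84 and 2.99 in the 72 hour mice and 7.58, 6.33 and 6.41 in the 7 day mice. Each 7 day mouse was above the other 12 mice, and the rise over control was 0.61 ± 0.20 (limma adjusted p = 0.0151). It did not pass without the control A3280 (adjusted p = 0.0613) or the 7 day mouse A3345 (adjusted p = 0.0578). With the column code in the fit the rise was 1.14 (adjusted p = 0.0234). The scale of log2(RPKM + 1) understates changes of a gene this low, whose ratio of means was 1.66.

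Rgs5, a regulator of G protein signalling that is among the most abundant pericyte transcripts (chr1:171585632-171625944, plus strand), stood at 124, 132 and 96.5 RPKM in controls and 107, 156 and 127 in the 12 hour mice. At 24 hours its level was 93.9, 94.2 and 134, at 72 hours 124, 112 and 126 and at 7 days 119, 101 and 105. All 5 groups overlapped. The difference at 7 days was -0.10 ± 0.19 (limma adjusted p = 0.668), with a 95% interval from -0.50 to 0.30. With the GC correction it was -0.82 (adjusted p = 0.00486), so whether Rgs5 fell depends on that correction.

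The mural genes were compared in the same way. Cspg4 relative to Rgs5 was 0.0336 to 0.0377 in controls, 0.0204 to 0.0208 at 12 hours, 0.0118 to 0.0317 at 24 hours, 0.0237 to 0.0364 at 72 hours and 0.0609 to 0.0635 at 7 days. This ratio was highest in the 7 day mice, and the 12 hour and 24 hour mice lay below the controls. Pdgfrb relative to Rgs5 was 0.122 to 0.155 in controls and 0.217 to 0.352 at 7 days. Each 7 day against control test of these ratios gave an exact permutation p of 0.1, the smallest possible. These ratios divide a gene that rose at 7 days by Rgs5, which did not pass, so they restate those calls. The same holds for Pdgfra relative to Tcf21, and for Dpt relative to Dcn in the reverse order. Lum relative to Dcn overlapped between 7 day and control mice (exact permutation p = 0.4), and Mfap4 relative to Dcn did not (exact permutation p = 0.1). The share of all gene pairs that separate was not computed.

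**Figure D3:**
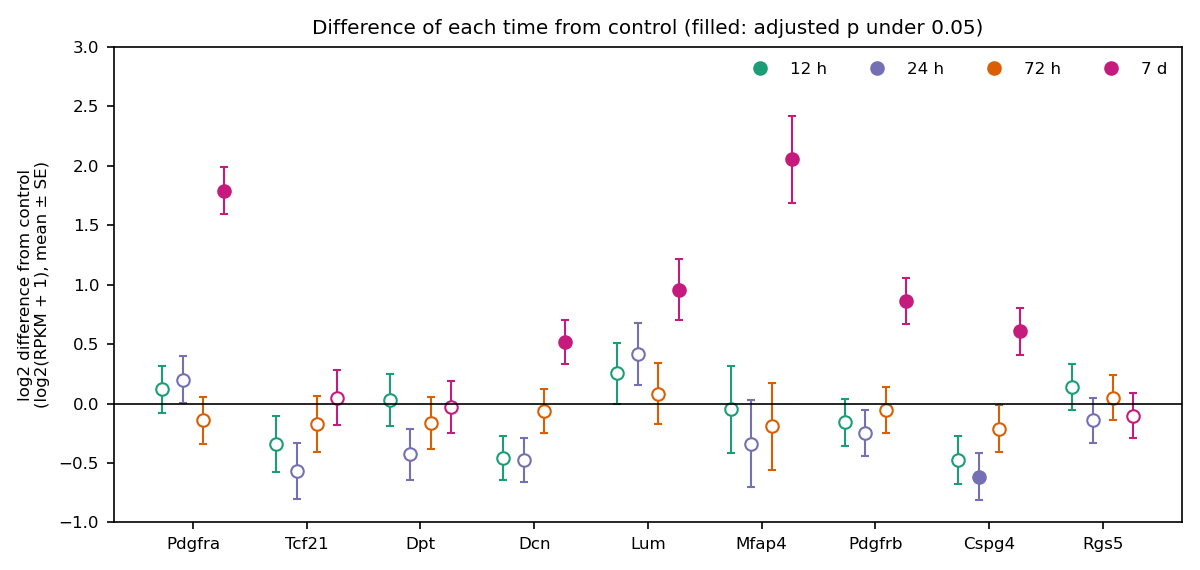
Difference of each time from control for the 9 genes on the log2(RPKM + 1) scale, with the SE of the fit. Filled points passed an adjusted p of 0.05. The 6 filled points at 7 days run from 0.52 (Dcn) to 2.05 (Mfap4), and Cspg4 at 24 hours is the only other filled point.

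Before 7 days few differences from control passed. At 12 hours 0 of 9 genes passed the limma test at an adjusted p of 0.05, where 0.524% of all genes rose and 12.7% fell, and 2 of 9 (Dcn and Cspg4) had an unadjusted p under 0.05. In 3 of 9 genes, Tcf21, Dcn and Cspg4, each 12 hour mouse lay below each control, as in 43% of all genes. Dcn differed by -0.46 ± 0.18 (limma adjusted p = 0.0947) and Cspg4 by -0.48 ± 0.20 (adjusted p = 0.104). Over all genes tested the median difference at 12 hours was -0.30, and with median scaling the difference of Dcn was -0.10 and that of Cspg4 -0.20.

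At 24 hours Cspg4 fell by 0.61 on the log2 scale (SE 0.20, limma adjusted p = 0.0449), 1 of 9 genes, where 10.6% of all genes fell and 5.38% rose. This call did not hold under median scaling (-0.46, adjusted p = 0.0568) or the GC correction (-0.34, adjusted p = 0.193), or without any 1 of the 3 controls, A3254 or A3262 (adjusted p from 0.055 to 0.22). Tcf21, Dpt, Dcn and Cspg4 had all 24 hour mice below all controls, 4 of 9 genes, as did 32.9% of all genes. Of these, Tcf21 differed by -0.57 ± 0.24 (adjusted p = 0.0978) and Dcn by -0.48 ± 0.18 (adjusted p = 0.0779). Without the 24 hour mouse A3254, Dcn differed by -0.68 and passed (adjusted p = 0.0175). The codes of the 24 hour columns occur in no other group, and their part in these values was not tested.

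At 72 hours, the time at which induced and control mice had the same doxycycline exposure, 0 of 9 genes passed the limma test (6.39% of all genes rose and 5.22% fell), 0 had an unadjusted p under 0.05 and each group of mice overlapped the controls. The differences ran from -0.21 (Cspg4) to 0.08 (Lum). The mouse A3278, whose column shares the code of the controls, had the highest level of the 72 hour group for Pdgfra, Tcf21, Dpt, Lum, Mfap4, Pdgfrb and Cspg4, with Mfap4 at 14.2 RPKM against 4.70 and 5.08. Between neighbouring early times 0 of 9 genes passed either from 12 to 24 hours, where 3.92% of all genes passed in either direction, or from 24 to 72 hours, where 10.2% did. Each of these steps had 1 gene with an unadjusted p under 0.05, Dpt and Dcn respectively.

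From 72 hours to 7 days the same 6 genes rose, where 22.6% of all genes rose and 22.3% fell. In each, the 7 day mice lay above all 72 hour mice, as in 25% of all genes. Pdgfra rose by 1.93 ± 0.20 (limma adjusted p = 7.44e-07) and Mfap4 by 2.24 ± 0.37 (adjusted p = 0.000101). Pdgfrb rose by 0.92, Lum by 0.87, Cspg4 by 0.82 and Dcn by 0.58, with limma adjusted p-values of 0.00105, 0.0105, 0.00275 and 0.016. Tcf21 (0.22), Dpt (0.13) and Rgs5 (-0.15) did not pass. The 7 day mice are common to this comparison and the one with the controls, so the calls are not independent of each other. The F test over the 5 groups passed for the same 6 genes, against 71.3% of all genes, and gave adjusted p-values of 0.119 for Tcf21, 0.265 for Dpt and 0.609 for Rgs5.

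This step can also be read within columns of the same code, since the 7 day and 72 hour mice share 3 codes. The codes are not independent, because A3283, A3264 and A3281 each have a column in 2 of them. The 72 hour side holds only A3264 and A3281 and leaves out A3278. Pdgfra differed by 2.00 to 2.31 (log2) within the 3 codes, Mfap4 by 1.96 to 3.07, Pdgfrb by 1.03 to 1.46, Cspg4 by 0.66 to 1.17 and Dcn by 0.55 to 0.76. In these 5 genes each 7 day column stood above each 72 hour column of its code. The share of all genes that did the same was not computed, so this only describes the 5 genes. Lum differed by 0.10 to 1.24, and in 1 code the 7 day column of A3283 (49.8 RPKM) lay between the 72 hour columns (37.5 and 57.2). Dpt was positive in all 3 codes (0.14 to 0.66), Tcf21 in 2 of 3 and Rgs5 in 1 of 3. With the column code as a term in the limma fit the 7 day against 72 hour comparison called 7 genes, the 6 above and Dpt (0.45, adjusted p = 0.0385). That fit called 30.1% of all genes higher, more than the fit without the code.

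**Figure D4:**
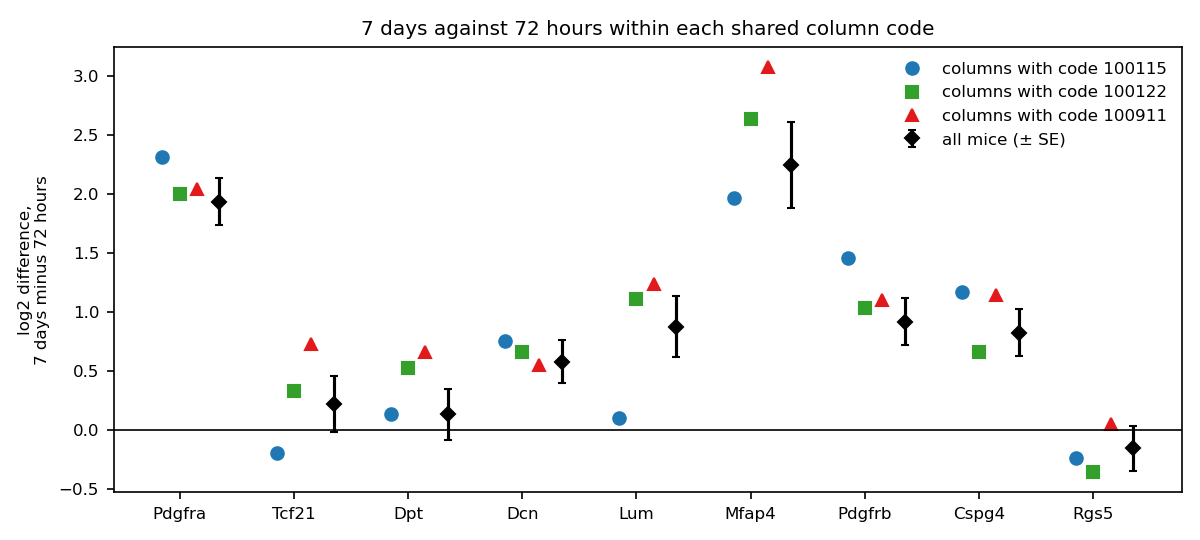
Difference between 7 day and 72 hour columns within each of the 3 shared column codes (coloured points) beside the difference over all mice with its SE (black), in log2 of RPKM + 1. Pdgfra, Mfap4, Pdgfrb, Cspg4 and Dcn lie above 0 in all 3 codes, by at least 0.55, while Rgs5 and Tcf21 fall on both sides of 0.

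The 7 day mice differed among themselves by gene. A3283 had the highest level of Pdgfra (29.2 RPKM) and Pdgfrb (35.7) of the 3 and the lowest of Tcf21 (5.68), Lum (65.7), Mfap4 (22.5), Cspg4 (6.33) and Rgs5 (101). Its repeat columns differed between codes in some genes, with Lum at 49.8 and 81.7 RPKM. They gave 33.8 and 24.6 for Pdgfra, 41.8 and 29.5 for Pdgfrb, 8.33 and 4.32 for Cspg4 and 93.5 and 109 for Rgs5. The place of A3283 among the 7 day mice in these last 4 genes therefore depended on which column was used. Across the 5 mice with a repeat column, the columns of 1 mouse differed by up to 1.93 times for Cspg4, 1.79 for Dpt and 1.64 for Lum, and by up to 1.14 times for Dcn and 1.20 for Rgs5.

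Other markers of the same cells were read against the shares of all genes at 7 days, 26.7% higher and 28.2% lower. These shares were 19.3% and 9.84% with the column code in the fit. Of 33 other fibroblast markers tested, 15 rose and 4 fell, with a median of 0.60, and 16 rose and 1 fell with the column code. Col3a1, which encodes a fibrillar collagen, rose by 3.83 and Sparc, a collagen-binding matricellular protein, by 1.68, Mgp rose by 1.36, and Gsn, an actin-severing protein, fell by 1.43. Of 26 other mural markers 8 rose and 7 fell, with a median of 0.06, which is close to the shares of all genes. In the fit with the column code 7 rose and 3 fell. Des and Acta2, which encode desmin and smooth muscle actin, rose by 0.59 and 0.80, whereas Abcc9, the sulfonylurea receptor subunit of a potassium channel, fell by 1.79 and Smtn (smoothelin) fell by 1.69. Des and Abcc9 are also expressed by heart muscle cells. Acta2, Aspn, Rgs4 and Loxl1 each belong to 2 of the lists.

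Of 17 genes of activated fibroblasts, 16 rose and 0 fell at 7 days, with a median of 2.60. Among all genes 26.7% rose and 28.2% fell. Postn (periostin) stood at 20.2, 15.2 and 9.40 RPKM in controls and at 397, 363 and 446 at 7 days, a rise of 4.72 ± 0.29 (limma adjusted p = 1.45e-09). Timp1, an inhibitor of matrix metalloproteinases, rose by 6.44 and Ctgf by 2.39. At 72 hours 0 of the 17 passed in either direction, but with the column code in the fit 2 rose, where 2.96% of all genes did. These were Timp1 (1.43) and Ctgf (1.23), but that fit ties the 72 hour group to the controls through A3278 alone. For Ctgf, A3278 stood at 93.7 RPKM, against 34.4 and 44.0 in the other 72 hour mice. For Timp1 it stood at 5.88 RPKM, against 2.815 and 3.4. The median of this list lay above that of the 9 identity genes, and Tcf21 and Dpt had not moved past the test in the same mice.

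**Figure D5:**
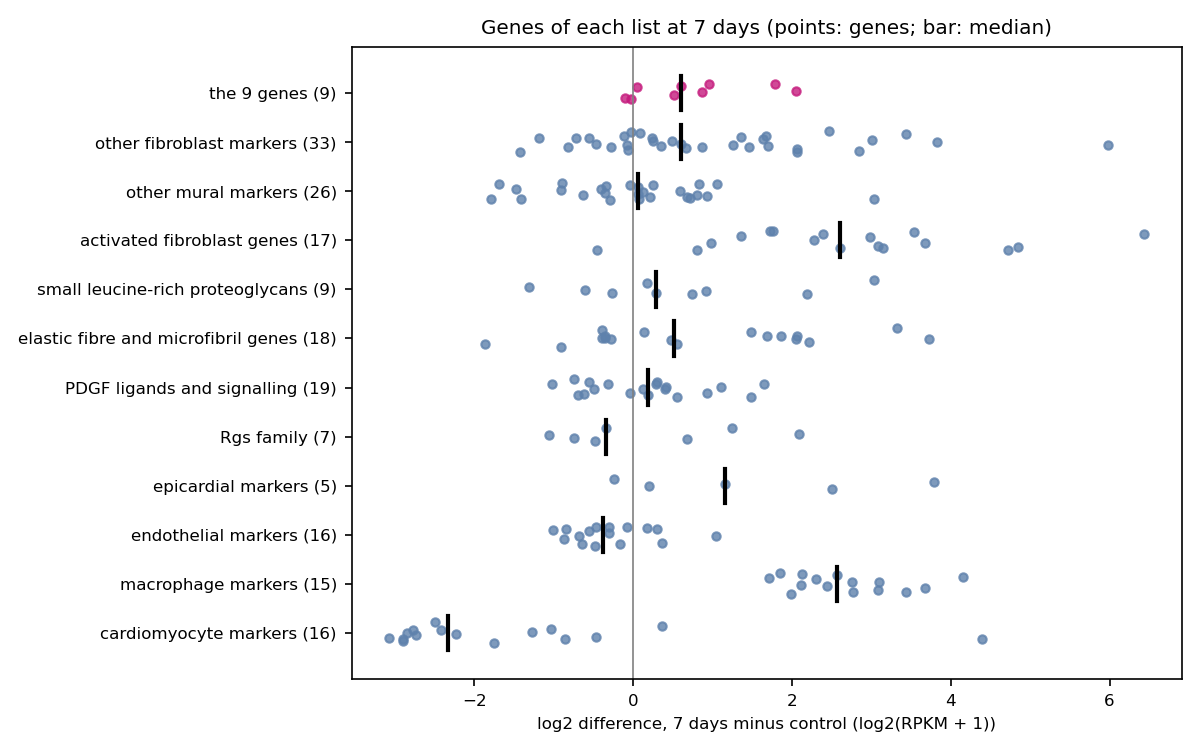
Difference between 7 day and control mice for each tested gene of 12 lists, in log2(RPKM + 1), with the number of genes in brackets. Points are genes, scattered vertically for legibility, and the black bar is the median. The 9 genes have a median of 0.61, between the activated fibroblast genes (2.60) and the other mural markers (0.06), and the cardiomyocyte markers lie mostly below 0.

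The matrix and signalling families to which the 9 genes belong were read against the shares of all genes, 26.7% higher and 28.2% lower. With the column code in the fit, these 7 day shares were 19.3% and 9.84%. Of 9 other small leucine-rich proteoglycans tested, 3 rose and 2 fell at 7 days, close to the shares of all genes. With the column code in the fit 3 rose and 0 fell. Bgn (biglycan) rose by 2.19 and Aspn by 3.04, and Ogn was at 0.75 without passing (limma adjusted p = 0.1). Prelp fell by 0.61 although its mice overlapped the controls, and with the column code it differed by -0.02 (adjusted p = 0.973). Of 18 genes of elastic fibres and microfibrils, 9 rose and 2 fell, and 8 rose and 1 fell with the column code. Mfap5 rose by 3.32 and Ltbp4 fell by 1.87, while the near-identical Mfap1a and Mfap1b, whose reads may be split between them, did not pass.

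Of 19 genes of ligands and signalling of the platelet-derived growth factor receptors, 5 rose and 6 fell, close to the shares of all genes, and with the column code 6 rose and 1 fell. The phosphatase Ptpn11 fell by 0.70, and Nrp1 did not pass. The adaptor Grb2 fell by 0.49, but by the column code fit it differed by -0.05 (limma adjusted p = 0.891). Stat3 did not pass (0.40, adjusted p = 0.134), but it did with the column code (0.84, adjusted p = 0.0243) and under median scaling (0.44, adjusted p = 0.0431). Of 7 other Rgs genes tested, 3 rose and 3 fell, where 26.7% of all genes rose and 28.2% fell. With the column code 2 rose and 0 fell, against 19.3% and 9.84% of all genes. Rgs10 rose by 2.09 and Rgs4, also a pericyte gene, was at -0.34 without passing. Rgs2 rose by 0.69 and Rgs3 fell by 0.74, and neither passed with the column code (0.66, adjusted p = 0.179, and -0.09, adjusted p = 0.846).

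Markers of other cells moved at 7 days as well, where 26.7% of all genes rose and 28.2% fell. RPKM are shares of a library. The summed level of 16 cardiomyocyte markers was 70600 to 73010 RPKM in controls, 43100 to 57920 at 72 hours and 15910 to 18920 at 7 days, and 13 of the 16 fell (median -2.32; Myh6, the alpha myosin heavy chain, fell by 3.07). Nppa, an atrial peptide gene that ventricles turn on under stress, is on that list and rose. The 15 tested of 16 macrophage markers all rose (median 2.57), from a summed 120 to 146 RPKM in controls to 747 to 1046. Of 16 endothelial markers 1 rose and 6 fell (median -0.38), and their sum was 1568 to 1840 RPKM in controls and 1789 to 2068 at 7 days. The higher sum came with Cd36, which averaged 395 RPKM in controls and 810 at 7 days, while Fabp4 averaged 722 and 691. Red cell markers summed to 1920 to 3223 RPKM in controls and 103 to 686 at 7 days. None of these lists had a defining marker at 0 in all mice. The part of these shifts in the rise of the 6 genes was not tested.

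Smaller lists gave fewer genes. Among all genes 26.7% rose and 28.2% fell at 7 days, and 19.3% and 9.84% did with the column code in the fit. Of 5 epicardial markers tested at 7 days 3 rose and 0 fell, including Aldh1a1 (2.51) and Aldh1a2 (3.79), which make retinoic acid. Of 4 Schwann cell markers 0 rose and 1 fell, and of 3 adipocyte markers 0 rose and 2 fell. Below the filter were 8 of 13 epicardial, 5 of 9 Schwann cell and 6 of 9 adipocyte markers in the table. The adipocyte markers tested were unlike in level, with Lpl at a mean of 1343 RPKM in controls, Car3 at 7.50 and Cfd at 4.68. The 1 lymphocyte marker that passed the filter, Cd3e, rose by 3.18. Its mean was 0.31 RPKM in controls and 11.2 at 7 days, and it passed the filter only through the 7 day mice. Its rise is therefore no measure of the list. The other 11 lymphocyte markers were below the filter, among them Cd79b (0.37 in controls, 0.43 at 7 days) and Cd2 (0.24 and 0.34). With the column code in the fit, the counts at 7 days against control were 15 higher and 0 lower for the activated fibroblast genes, 1 and 11 for the cardiomyocyte markers, 15 and 0 for the macrophage markers, 4 and 0 for the epicardial markers, 0 and 1 for the adipocyte markers, 1 and 0 for the lymphocyte marker, and 0 and 0 for the endothelial, red cell and Schwann cell markers.

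The genes whose profile over the 15 mice was most like each of the 9 were found by Pearson correlation of log2(RPKM + 1) after median scaling, among 10867 other genes and with the mice of a group counted singly. For Pdgfra these were Anxa2 (r = 0.979), Diap1 (0.975) and Vsig4 (0.971), for Pdgfrb they were Eps8 (0.972), Mmp3 (0.967) and Fbn1 (0.962), and for Cspg4 Txndc5 (0.976), Serpinf1 (0.966) and Gab2 (0.964). Mfap4 was most like Col6a1 (0.968), Dcn most like Rnase4 (0.926) and Lum most like Utx (0.910). The genes that did not pass at 7 days had lower best values, with Fmod for Tcf21 (0.822), Ncald for Dpt (0.832) and Atp2a3 for Rgs5 (0.886), followed by Atp2a1 (0.875). Group means were not removed, so a gene that shifted at 7 days correlates with the many others that shifted then. The lower values of Tcf21, Dpt and Rgs5 therefore restate the 7 day calls. All these correlations are descriptions over mice that share groups, codes and depth.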

How the data were processed

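The 9 genes and all gene lists were chosen with earlier results of these data known. The authors deposited 1 table of RPKM per gene and column. TopHat, Bowtie and the build mm9 are named, per the submitters' processing notes. Tool versions, how genes were counted and read strand were not given in the sources used here. Repeat columns of a mouse were averaged, groups and mouse numbers came from the labels, and depth was estimated from the step between low values of 90 single-exon olfactory receptor genes (60 of 60 simulated columns within 5%). Values were taken as log2(RPKM + 1), with a mean of at least 1 RPKM required. They were fitted with limma 3.58.1 (trended variance) in R 4.3.3 over 5 groups of 3 mice, with Benjamini-Hochberg adjustment within each comparison. On simulated data for 7 days against control, the fit recovered 58% of changes of log2 1 and 97% of changes of log2 2. It made 11 false calls among 10868 genes. A gene that did not pass may therefore still differ by log2 1 or less. The genes named were the 9, the 4 most abundant of each related list (3 for other cell types), the 3 most like each of the 9, and the induced gene. Other genes named, Mapk7 and Nppa, were added after their values were seen. Alternatives were the pseudocount, filters, scaling, GC correction, column code as a term (16 columns), 1 column per mouse, 2 groups alone and leaving out each mouse.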

Additional observations from a re-analysis of the deposited data

Results flagged for a closer look

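The 6 results here were flagged because the change from 72 hours to 7 days within the induced mice passed its own test (limma, adjusted over all genes tested). This was not rare, since 22.6% of all genes rose and 22.3% fell in that step. Pdgfra rose by 1.93 on the log2 scale, Mfap4 by 2.24, Pdgfrb by 0.92, Lum by 0.87, Cspg4 by 0.82 and Dcn by 0.58. In each of these genes the 3 mice at 7 days stood above the 3 at 72 hours, as in 25% of all genes.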

How the results depend on the processing

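Of 715 differences recomputed for the 9 genes, 682 kept their side of the threshold, 24 lost the call and 8 gained one. In addition 1 called value reversed, Dcn at 7 days with the GC correction (-0.10). Among the 682 were 58 that passed in neither fit and changed sign. At 12 hours 0 genes passed, and 1 did with the GC correction or with the 2 groups alone. At 24 hours the count of 1 became 0 with no filter, a mean of at least 5 RPKM (which leaves Cspg4 untested), median scaling or the first column of each mouse, 2 with the GC correction or the 2 groups alone, and 0 to 1 when each mouse was left out. From 24 to 72 hours the count was 0 to 1 when each mouse was left out, with 1 only without A3254. At 7 days against control it was 6, then 5 with the GC correction (4 higher and Rgs5 lower), 5 with the column code, 5 with a mean of at least 5 RPKM and 4 to 6 when each mouse was left out. From 72 hours to 7 days the count of 6 became 4 with the GC correction and 7 with the column code. Over all genes, calls ranged from 9 (column code) to 3244 (2 groups alone) at 12 hours against 1432, from 39 (without the control A3280) to 2582 at 24 hours against 1736, from 376 (column code) to 2490 (without A3278) at 72 hours against 1262, from 95 to 657 for 24 against 12 hours (426), from 270 to 1465 for 72 against 24 hours (1113), and from 3171 (column code; 2102 higher and 1069 lower) to 6780 at 7 days against 5960 (2899 higher and 3061 lower). Median scaling moved the split at 24 hours from 585 higher and 1151 lower to 908 and 753, and that at 12 hours from 57 and 1375 to 72 and 157. The cause was not tested. Column code could not be fitted for 24 hours, whose codes occur in no other group. No paired analysis was possible because mouse numbers are not shared between groups. At estimated depths, Tcf21 and Mfap4 rested on as few as 124 and 153 reads in a column, a counting error of 8.98% and 8.1%.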
